A study of Gallus gallus with 8 samples.

Results

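The regions described here are the CUT&Tag peaks on chicken (Gallus gallus) chromosomes 16, 30, 31, 32 and 33. They were chosen by chromosome name alone, and they number 1075 of the 69159 peaks listed in the series, or 1.55%. CUT&Tag tethers the Tn5 transposase to an antibody on chromatin, so that sequenced fragments mark the places near the bound protein. The libraries were made from liver, 4 from birds kept at high temperature (libraries 1 to 4) and 4 from birds kept at normal temperature (libraries 1 to 4). The series addresses birds under heat stress. The labels give no breed, sex, age, degrees or length of exposure, do not name the primary antibody, and do not say that each library is a separate bird. The p-values below therefore measure the spread between these libraries, which may be technical.

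The series title names Nrf2 as its subject. Nrf2 is a transcription factor that is held in the cytoplasm by Keap1, enters the nucleus under oxidative or electrophilic stress, and activates antioxidant and detoxification genes with small Maf partners at antioxidant response elements. The liver is a main site of this response. Avian microchromosomes are gene-rich and GC-rich, and the smallest of them are hard to assemble. Chromosome 16 carries the major histocompatibility complex, in its B and Y parts, and the nucleolus organiser with the repeated ribosomal RNA genes. In the RefSeq gene table of the later assembly GRCg7b, chromosome 16 holds 331 genes, of which 52 are annotated as ribosomal RNA and 16 have MHC-Y symbols. The same table places 16 of 17 listed genes of the B locus and its neighbours there, among them BF1 and BF2 (class I heavy chains), BLB1 and BLB2 (class II beta chains), TAP1 and TAP2 (peptide transporters) and TAPBP (tapasin). The peaks are in galGal6, so these genes were not placed against them, and all regions are given by galGal6 position.

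Each library came as its own list of peaks. A peak has a score from the authors' caller, of unstated scale, and no read count, so the depth behind it is unknown. High temperature lists held 7550 to 8253 peaks and normal temperature lists 8262 to 10599. Scores were used only as a percentile of a library's own list, where 100 is the highest. High temperature 1 stood apart, with a median peak width on these chromosomes of 419.5 bp, against 200 bp in each of the other 7 libraries. It also listed 12 of its peaks on these chromosomes with the same start and end as high temperature 3. In all other pairs together, 1 such peak was found, shared by high temperature 2 and normal temperature 2.

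Peaks on the 5 chromosomes were a small share of every list. The share was 2.68% (202 peaks), 1.28% (98), 1.65% (136) and 1.17% (91) in high temperature 1 to 4, against 1.57% (130), 1.49% (134), 1.40% (141) and 1.35% (143) in normal temperature 1 to 4. High temperature 1 was highest, with a 95% exact Clopper-Pearson interval of 2.32% to 3.06% that covers counting error only. The other high temperature libraries lay on both sides of the normal ones. High temperature libraries averaged 1.69% ± 0.686 and normal temperature libraries 1.45% ± 0.100 (SD, n = 4 each), with a two-sided exact permutation p of 0.743 and an adjusted p of 0.943. With high temperature 1 left out, the difference was -0.0877 percentage points, so its direction rested on that library. All adjusted p-values in this text are Benjamini-Hochberg values within a family of measures, here 7 measures of the 5 chromosomes together.

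**Figure D1:**
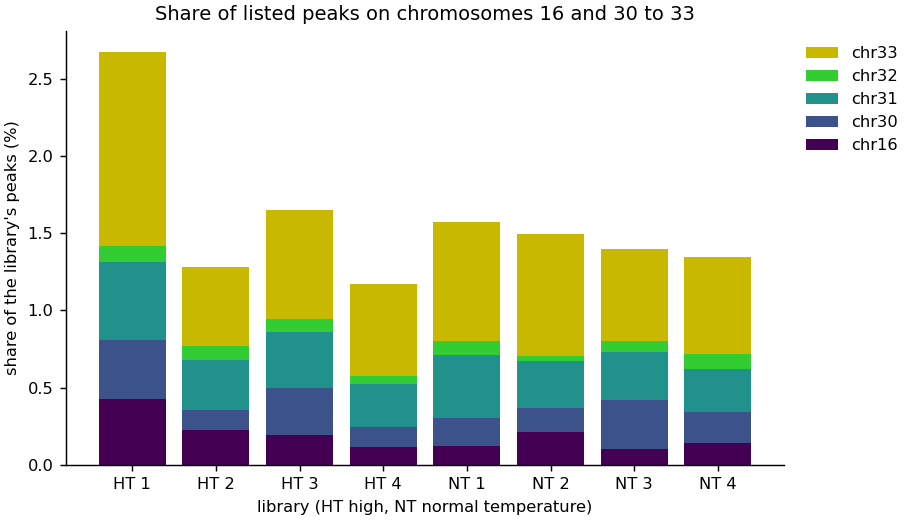
Share of each library's listed peaks (vertical axis, percent) that lay on chromosomes 16 and 30 to 33, as 1 stacked bar per library with a colour per chromosome (HT, high temperature; NT, normal temperature). High temperature 1 reached 2.68%, and the other 7 libraries lay between 1.17% and 1.65%.

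Taken 1 by 1, no chromosome differed between the temperatures beyond the spread of the libraries. Chromosome 16 held 32, 17, 16 and 9 peaks in high temperature 1 to 4, against 10, 19, 10 and 15 in normal temperature 1 to 4. Its share averaged 0.239% ± 0.131 at high and 0.143% ± 0.0488 at normal temperature (SD, n = 4 each, two-sided exact permutation p = 0.257, adjusted p = 0.914 over 5 chromosomes). Leaving out high temperature 1 changed the difference to 0.0339 percentage points, in place of 0.0955. The groups overlapped on this chromosome, with high temperature 4 below normal temperature 1. Chromosome 33, which held 500 of the 1075 peaks, averaged 0.765% ± 0.338 at high and 0.698% ± 0.0995 at normal temperature (exact permutation p = 0.914, adjusted p = 0.914). Chromosomes 30, 31 and 32 had unadjusted exact permutation p-values of 0.857, 0.571 and 0.486. The smallest p of this permutation test is 0.0286. After adjustment, 1 chromosome alone could therefore not pass a threshold of 0.05, nor could 1 of the 7 measures alone.

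Density was measured as peaks per Mb of observed span, from base 1 to the highest peak end seen in any library, which stands in for the chromosome length. The spans were 2.82 Mb for chromosome 16, 1.76 Mb for 30, 6.14 Mb for 31, 0.683 Mb for 32 and 7.80 Mb for 33. By span, chromosomes 32, 30 and 16 were the shortest numbered chromosomes, but chromosomes 31 and 33 were longer than several of chromosomes 21 to 28. Density differed among the 5. Among the 32 numbered autosomes with peaks, chromosomes 30 and 32 ranked first and second in mean density, and chromosomes 16 and 31 ranked 31 and 32, while chromosome 33 ranked 26.

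Chromosome 30 carried 11.1 ± 4.86 peaks per Mb over all libraries and chromosome 32 carried 9.69 ± 3.22 (SD, n = 8). Chromosome 33 carried 8.02 ± 2.17, and chromosome 16 carried 5.68 ± 2.64 peaks per Mb (SD, n = 8). Chromosome 31 carried 4.84 peaks per Mb and had the narrowest range, from 3.58 to 6.19 over the 8 libraries. Chromosome 30 had the widest, with 16.5, 5.69, 14.2 and 5.69 peaks per Mb in high temperature 1 to 4, against 8.53, 7.96, 18.2 and 11.9 in normal temperature 1 to 4. High temperature 2 and 4 were lowest and normal temperature 3 was highest, and the groups overlapped. Chromosome 32 is so short that its densities rest on 3 to 10 peaks per library. Neighbours in this order were not tested against each other.

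On chromosome 16 the first peak of any library began at base 500043, so 17.7% of the observed span held no peak. Measured from the first peak onward, chromosome 16 carried 6.90 peaks per Mb and still ranked 31 of 32. A longest peak-free stretch of at least 490 kb occurred on 18 of the 32 chromosomes. On chromosomes 30, 31, 32 and 33 the longest stretch without a peak was 94686, 246280, 46910 and 156269 bp. The sequence of these stretches was not analysed here.

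**Figure D2:**
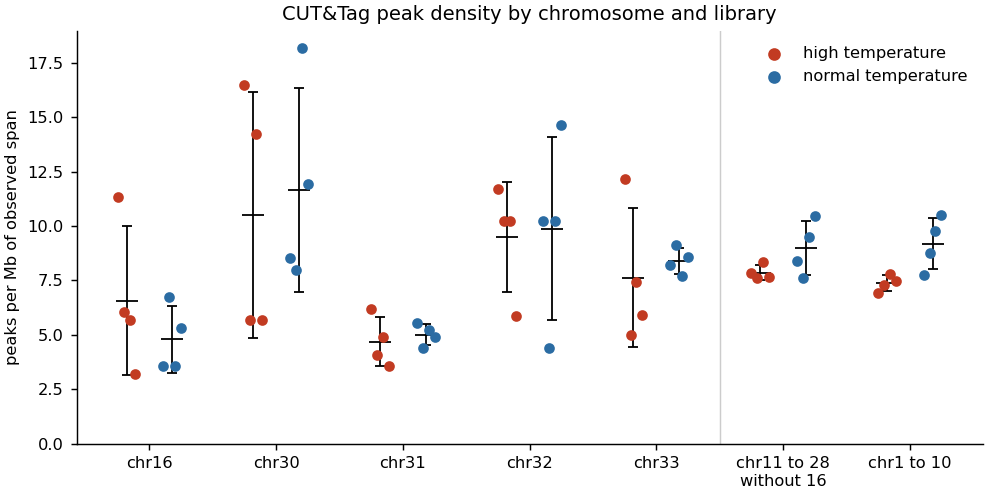
Peaks per Mb of observed span (vertical axis) in each library, as points, for the 5 chromosomes, for chromosomes 11 to 28 without 16 and for chromosomes 1 to 10, with high temperature left of normal temperature; bars are the mean ± SD of 4 libraries. Chromosomes 16 and 31 lie low, chromosomes 30 and 32 high and scattered, and the temperatures overlap on each of the 5.

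Together, the 5 chromosomes carried 6.86 ± 2.65 peaks per Mb at high and 7.14 ± 0.315 at normal temperature (SD, n = 4 each, two-sided exact permutation p = 0.943, adjusted p = 0.943). Within libraries they were compared with the other small chromosomes, 11 to 28 without 16. Their density was 1.34 times that of chromosomes 11 to 28 in high temperature 1, and 0.620 to 0.919 times in the other 7 libraries. The mean log2 ratio was -0.30 ± 0.34 (SD, n = 8, lower in 7 of 8 libraries). A two-sided exact sign-flip permutation test over the 8 libraries gave p = 0.0547 and an adjusted p of 0.0911 over 15 within-library comparisons. Without high temperature 1 this log2 ratio was -0.40 and the adjusted p was 0.0260, so the call depended on that library. The log2 ratios to chromosomes 1 to 10 and to all other peaks were -0.27 and -0.25 (sign-flip permutation, adjusted p = 0.127 for both). Leaving out high temperature 1 gave -0.39 and -0.37, each with an adjusted p of 0.0260.

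Peaks on these chromosomes were wider than elsewhere. Most of the 1075 were still narrow, with a width of exactly 200 bp in 698 and exactly 250 bp in 56, but 121 were wider than 500 bp and 32 wider than 1000 bp, up to 3800 bp. The share of peaks wider than 250 bp on the 5 chromosomes was 78.2%, 15.3%, 12.5% and 19.8% in high temperature 1 to 4. It was 11.5%, 7.46%, 7.80% and 16.1% in normal temperature 1 to 4. On chromosomes 11 to 28 the share was 63.1%, 6.91%, 4.41% and 6.67% in high temperature 1 to 4, and 3.58%, 1.80%, 3.46% and 6.81% in normal temperature 1 to 4. The share was thus higher on the 5 chromosomes in 8 of 8 libraries, by 4.34 to 15.1 percentage points. Single chromosomes could lie below chromosomes 11 to 28. Chromosome 33 did so in high temperature 3 (3.45%) and normal temperature 2 (1.41%). Chromosome 30 had 0 wide peaks in high temperature 4, and chromosome 32 had 0 in normal temperature 2 and 3. In all other cases the single chromosome lay above.

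The mean difference was 8.99 ± 3.57 percentage points (SD, n = 8, two-sided exact sign-flip permutation p = 0.00781, the smallest that 8 libraries allow, adjusted p = 0.0195). Against chromosomes 1 to 10 the difference was 10.4 and against all other peaks 9.88 percentage points, with the same p and adjusted p by sign-flip permutation. Both were positive in 8 of 8 libraries. Among peaks that overlapped no peak of another library, the difference from chromosomes 11 to 28 was 5.05 percentage points (sign-flip permutation, adjusted p = 0.0391). With high temperature 1 and 3 left out it was 8.12 percentage points, higher in 6 of 6 libraries, where the smallest possible p is 0.03125 and the adjusted p was 0.0521.

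Chromosome 16 had the highest share of wide peaks of the 32 chromosomes, 39.1% over all libraries and 28.1% without high temperature 1. Its wide peaks numbered 31 of 74 at high temperature and 19 of 54 at normal temperature, but high temperature 1 alone gave 23 of 32. The other 3 high temperature libraries gave 8 of 42 (19.0%), against 35.2% at normal temperature, so the direction between temperatures turned without that library. Chromosome 30 followed with 29.5% over all libraries, and chromosomes 31, 33 and 32 had 22.7%, 21.2% and 20.8%. Chromosome 25, which is not one of the 5, ranked between chromosomes 30 and 31 with 25.3%. Without high temperature 1, chromosomes 30, 31, 33 and 32 had 15.7%, 11.5%, 8.4% and 11.1%, and chromosome 25 ranked second, just above chromosome 30. Chromosomes 22 and 14, also outside the 5, then lay just below chromosome 33, at 8.0% and 7.9%. The values per chromosome are descriptions, and no test was made between chromosomes.

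Between temperatures, the share of wide peaks on the 5 chromosomes averaged 31.5% ± 31.3 at high and 10.7% ± 4.02 at normal temperature (SD, n = 4 each, two-sided exact permutation p = 0.0857, adjusted p = 0.500). The difference was 5.14 percentage points without high temperature 1, in place of 20.7. Covered sequence averaged 2447 ± 1879 bp per Mb at high and 1786 ± 190 bp per Mb at normal temperature (exact permutation p = 0.886, adjusted p = 0.943). High temperature 1 covered 5240 bp per Mb and the other 7 libraries 1241 to 2038. The difference without it was -270 bp per Mb.

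Peaks on these chromosomes also recurred more often from library to library. A peak was counted as recurrent if it overlapped a peak of any other library by at least 1 bp. The share of such peaks was 28.7%, 13.3%, 26.5% and 14.3% in high temperature 1 to 4, and 14.6%, 9.70%, 10.6% and 13.3% in normal temperature 1 to 4. On chromosomes 11 to 28 it was 27.2%, 5.11%, 22.8% and 6.24% in high temperature 1 to 4, and 4.63%, 5.27%, 3.98% and 4.30% in normal temperature 1 to 4. The share was higher on the 5 chromosomes in 8 of 8 libraries, least so in high temperature 1 (1.06 times) and 3 (1.16 times), the pair with identical peaks. In the other 6 libraries it was 1.84 to 3.16 times that of chromosomes 11 to 28.

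**Figure D3:**
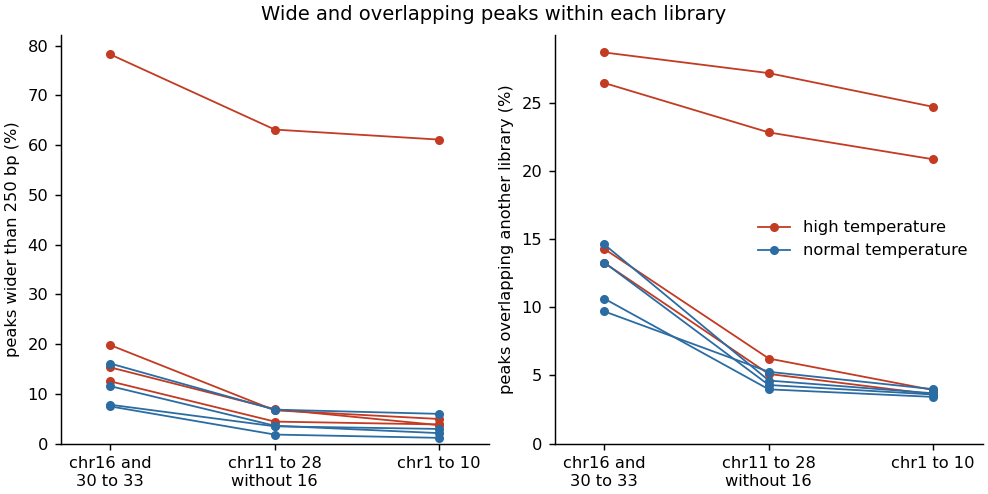
Percent of peaks wider than 250 bp (left panel) and percent of peaks overlapping a peak of another library (right panel), for the 5 chromosomes, for chromosomes 11 to 28 without 16 and for chromosomes 1 to 10; each line is 1 library, red for high and blue for normal temperature. Every line is highest at the 5 chromosomes, and high temperature 1 lies above the others in both panels.

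The difference from chromosomes 11 to 28 was 6.43 ± 2.95 percentage points (SD, n = 8, two-sided exact sign-flip permutation p = 0.00781, adjusted p = 0.0195). Against chromosomes 1 to 10 and against all other peaks it was 7.89 and 7.53 percentage points, with the same adjusted p by sign-flip permutation. An overlap counts in both of its libraries, so the 8 shares are not independent, as the test takes them to be. The p-values of recurrence can therefore overstate the support, here and between temperatures. Single chromosomes outside the 5 reached similar shares. Over all libraries 24.2% of peaks recurred on chromosome 16, 23.1% on 30, 20.8% on 32, 15.0% on 33 and 13.9% on 31, compared with 18.6% on chromosome 25. The next shares leave out the peaks of high temperature 1 but still count overlaps of other libraries with them. By these shares, chromosome 33 (12.3%) ranked below chromosome 25 (15.2%), and chromosome 31 (11.5%) also below chromosome 27 (11.7%). Without normal temperature 4 the difference from chromosomes 11 to 28 was 5.62 percentage points with an adjusted p of 0.0781. With high temperature 1 and 3 left out it was 5.34 percentage points (adjusted p = 0.0521, sign-flip permutation over 6 libraries). There the smallest possible p is 0.03125. Among peaks of up to 250 bp the difference was 1.9 percentage points (sign-flip permutation p = 0.305, adjusted p = 0.762), and no longer passed the threshold.

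Recurrence was higher among wider peaks, given here as a description. Of 808 peaks of up to 250 bp 10.3% overlapped another library, of 146 peaks over 250 and up to 500 bp 26.0%, and of 121 peaks over 500 bp 53.7%. On chromosomes 11 to 28 the same shares were 7.30%, 19.9% and 41.0%. High temperature 1 gave most of the wider peaks. Without it the shares on the 5 chromosomes were 5.89% of 764, 11.9% of 59 and 74% of 50 peaks, compared with 2.99%, 7.23% and 68.3% on chromosomes 11 to 28. A wide peak covers more bases and is more easily overlapped, and the share of the excess that this accounts for was not tested. Between temperatures, recurrent peaks averaged 20.7% ± 8.04 at high and 12.1% ± 2.28 at normal temperature (SD, n = 4 each, two-sided exact permutation p = 0.143, adjusted p = 0.500). Leaving out high temperature 1, which also takes away its partners' overlaps, gave a difference of 3.0 percentage points, in place of 8.62.

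Merging overlapping peaks of all libraries gave 66027 union regions genome-wide, of which 962 lay on the 5 chromosomes. Of these 962, 73 (7.59%) were held by at least 2 libraries, against 4.16% of all regions. Leaving out regions held by high temperature 1 and 3 alone, which numbered 20, the shares were 5.63% on the 5 chromosomes and 2.01% in the genome. At least 4 libraries shared 9 of the 962 regions, or 0.936%, compared with 0.0954% genome-wide. By chromosome, 11 of 108 regions on chromosome 16, 13 of 133 on 30, 11 of 216 on 31, 4 of 46 on 32 and 34 of 459 on 33 were held by at least 2 libraries. The 9 regions of at least 4 libraries lay on chromosomes 16 (3), 30 (2), 31 (3) and 32 (1), and none lay on chromosome 33, the largest of the 5.

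High temperature 1 was among the holders of 57 of the 73 shared regions, or 78.1%, and high temperature 3 of 36. The other 6 libraries held 13 to 19 each. Of the 52 regions held by exactly 2 libraries, 24 joined 2 high temperature libraries, 4 joined 2 normal ones and 24 joined 1 of each. High temperature 1 and 3 were the holders of 20 of the 24 that joined 2 high temperature libraries. Genome-wide that pair held 1446 of the 2560 regions of exactly 2 libraries. When high temperature 1 was left out, 35 regions were shared by at least 2 libraries and 4 by at least 4. Genome-wide shares were not counted with it left out, so these counts have no background beside them.

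Regions are named below by chromosome and letter. Region 16b (chromosome 16 from 521330 to 522094, 765 bp) was held by 7 of 8 libraries, all but high temperature 4. Its peak stood at percentile 99.9, 48.7 and 99.9 in high temperature 1 to 3, against 99.9, 81.4, 54.2 and 97.6 in normal temperature 1 to 4. The peak ranked 8th, 6th and 6th in the lists of high temperature 1, high temperature 3 and normal temperature 1. Its borders were alike in all 7 libraries, with starts within 82 bp, ends within 190 bp and widths of 575 to 691 bp.

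Only 197 bp before region 16b lay region 16a (from 520501 to 521132, 632 bp). High temperature 1, 3 and 4 and normal temperature 3 held it, at percentiles of 3.05, 15.6 and 95.4 at high and 96.1 at normal temperature. High temperature 4, which lacked 16b, thus had a high-ranking peak of 228 bp in 16a. Both regions belong to cluster 16A (from 518521 to 532848, 14328 bp), the cluster with the most peaks on the 5 chromosomes, with 16 peaks from 8 of 8 libraries. A cluster is a chain of peaks of any library that lie at most 5 kb apart. High temperature 1 to 4 gave 4, 2, 2 and 1 of its peaks and normal temperature 1 to 4 gave 1, 1, 2 and 3. High temperature 1 and normal temperature 4 both listed a further peak in it of almost the same extent, from 524628 to 526206 and from 524630 to 526206.

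Region 16c (chromosome 16 from 1840050 to 1841624, 1575 bp) was held by 2 libraries of each temperature. It stood at percentile 91.4 and 99.6 in high temperature 1 and 4, against 91.3 and 99.99 in normal temperature 1 and 2. In normal temperature 2 it was the highest-scoring peak of the entire list of 8968. The peaks were 1416 to 1545 bp wide. It lies in cluster 16C (from 1838940 to 1843441), with 6 peaks, and cluster 16B (from 1811859 to 1832557, 20699 bp) ends 6382 bp before it. Cluster 16B held 5 peaks of high temperature 1, 2 of normal temperature 2 and 1 of normal temperature 4, with widths of 408 to 2143 bp. Peaks in 16b or 16c were the highest-scoring on the 5 chromosomes in 3 of 4 high and 2 of 4 normal temperature libraries. In normal temperature 3 the highest was a 200 bp peak of chromosome 16, from 2248288 to 2248487, that overlapped no other library and ranked 208 in its list. In high temperature 2 and normal temperature 4 that peak lay on chromosome 33, from 6907387 to 6907586 and from 6700513 to 6700762, and overlapped no other library.

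On chromosome 30, region 30b (from 1244810 to 1246339, 1530 bp) was also held by all libraries but high temperature 4. Its percentiles were 99.9, 69.1 and 98.6 in high temperature 1 to 3, against 99.4, 78.1, 67.1 and 94.3 in normal temperature 1 to 4. Starts agreed within 93 bp, whereas the width was 212 bp in normal temperature 2 and 1050 to 1502 bp in the other 6 holders. Region 30a (from 1238878 to 1239870, 993 bp) lay 4939 bp before it and was held by high temperature 1 and 2 and normal temperature 1 and 3. Its percentiles were 99.3 and 89.9 at high and 70.1 and 76.8 at normal temperature, and its ends agreed within 18 bp. The pair forms cluster 30A (7462 bp), with 11 peaks of 7 libraries. Cluster 30B, from 1318279 to 1324479, held 6 peaks of high temperature 1 and 3 and normal temperature 3 and 4.

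**Figure D4:**
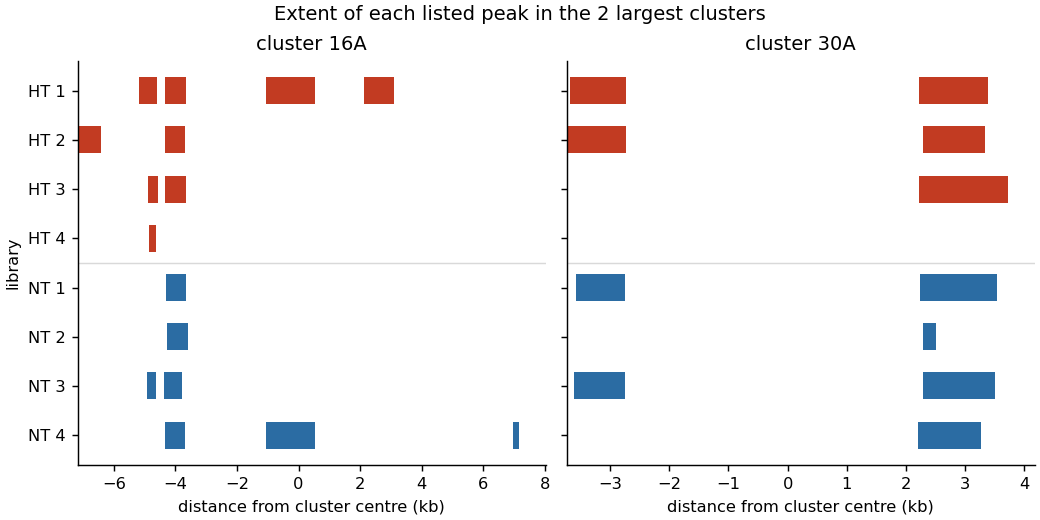
Extent of each listed peak in the 2 clusters with most peaks (left, 16A on chromosome 16; right, 30A on chromosome 30) against distance from the cluster's centre in kb, with 1 row per library, high temperature above normal temperature. The 7 peaks of region 16b line up near -4 kb and those of region 30b begin together near 2 kb, while high temperature 4 has 1 peak in the left panel and none in the right.

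Chromosome 31 held 2 neighbouring regions with unlike holders, 8538 bp apart. Region 31a (from 199250 to 200284, 1035 bp) was held by high temperature 1, 3 and 4, at percentiles 98.8, 98.9 and 55, and by normal temperature 4, at 68.3. Region 31b (from 208823 to 210702, 1880 bp) was held by high temperature 1, at 54.4, and by normal temperature 1 to 4, at 8.84, 7.94, 65.4 and 82.2. Its peak was 1880 bp wide in high temperature 1 and 400 to 821 bp in normal temperature 1 to 4. Region 31c (from 2863299 to 2864626, 1328 bp) was held by high temperature 1 and 3 and normal temperature 1 and 4. It was the lowest-scoring peak of the whole list in high temperature 3, and its peaks were 200 to 1140 bp wide.

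Region 32a (chromosome 32 from 616569 to 618085, 1517 bp) was held by all 4 high temperature libraries and by normal temperature 1. Its percentiles were 74.5, 74.4, 75.5 and 61.5 in high temperature 1 to 4, against 96.9 in normal temperature 1, the highest of the 5. The peaks were 997 to 1490 bp wide in high temperature 1 to 4 and 1305 bp in normal temperature 1. A two-sided Fisher's exact test of 4 of 4 against 1 of 4 libraries gave p = 0.143 for 32a, the same as for the reverse pattern of 31b. Both had an adjusted p of 1 over the 66027 regions.

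**Figure D5:**
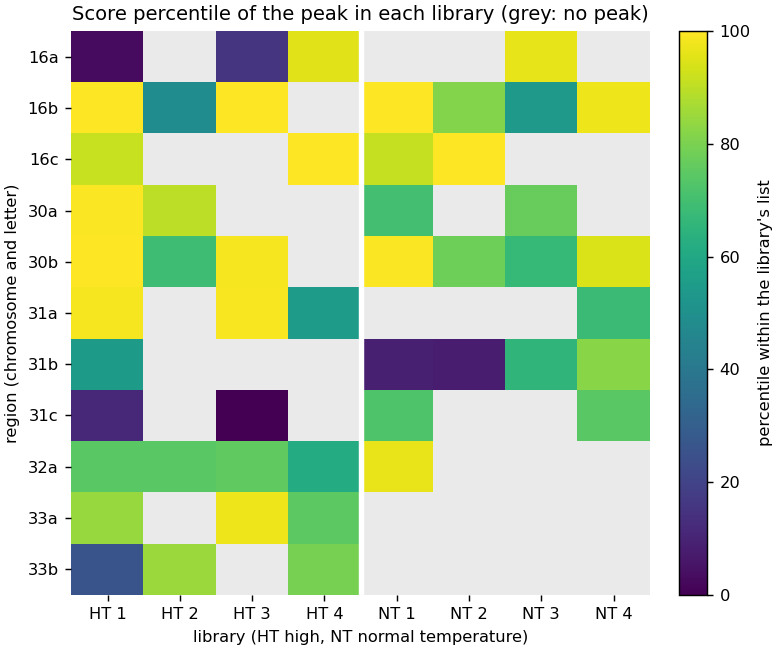
Score percentile within its own list (colour, 0 to 100) of the peak that each library (columns, high temperature HT left of normal temperature NT) held in the 11 named regions (rows); grey means no peak. Regions 16b and 30b are filled in all columns but HT 4, 32a in all HT columns and NT 1, 31b in all NT columns and HT 1, and 33a and 33b in HT columns alone.

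The last comparison asked which regions were held at 1 temperature only, by at least 3 of 4 libraries of it and by 0 of 4 of the other. On the 5 chromosomes 2 regions were so for high temperature (0.208% of 962, against 0.0333% of all regions) and 0 for normal temperature (against 0.00303% of all regions). Both lay on chromosome 33. Only regions held by at least 3 libraries can qualify, and these made up 2.18% here and 0.279% genome-wide. Among them, 2 of 21 on the 5 chromosomes and 22 of 184 genome-wide were high temperature regions. The higher share on the 5 chromosomes thus goes with their higher recurrence. Region 33a (from 5867555 to 5867788, 234 bp) had a 200 bp peak in high temperature 1, 3 and 4, at percentiles 84.7, 97.6 and 74.8. In high temperature 1 and 3 the peak had the same start and end. Region 33b (from 6751115 to 6751414, 300 bp) was held by high temperature 1, 2 and 4, at percentiles 26.1, 85.0 and 79.6, with a width of 300 bp in high temperature 1 and 200 bp in the other holders. A pattern of 3 of 4 against 0 of 4 fixes Fisher's exact p at 0.143, so the test adds nothing to the choice of these regions. Even 4 of 4 against 0 of 4 gives only 0.0286, so a call after adjustment over 66027 regions was practically out of reach. The test gave 0 calls (0%) after adjustment at a threshold of 0.05, and also 0 (0%) before adjustment. On these chromosomes 0 high temperature regions were left without high temperature 1 or without high temperature 4, and 1 was left without high temperature 2 or without high temperature 3. The rule still asked for 3 holders among the remaining libraries, so leaving out any holder removed its region. These counts follow from the holders alone. Leaving out high temperature 1 gave 1 normal temperature region, 31b, which all 4 normal temperature libraries held. High temperature 1 was its only high temperature holder.

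The remaining regions of 3 libraries were mixed. There were 12 regions held by exactly 3 libraries, 7 of them on chromosome 33 and including 33a and 33b. High temperature 1 was a holder of 11 of them and high temperature 1 and 3 together of 7. The other 10 were held by libraries of both temperatures.

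Within a library, peaks on the 5 chromosomes were mostly isolated. The share with another peak of the same library within 5 kb was 19.8%, 4.08%, 2.94% and 2.2% in high temperature 1 to 4, and 1.54%, 8.96%, 1.42% and 8.39% in normal temperature 1 to 4. High temperature 1 stood far above, and normal temperature 2 and 4 above the rest. The means were 7.26% ± 8.4 at high and 5.08% ± 4.16 at normal temperature (SD, n = 4 each, two-sided exact permutation p = 0.743, adjusted p = 0.943). Its direction turned without high temperature 1, to -2.0 percentage points. Against chromosomes 11 to 28 the share was 1.94 ± 2.55 percentage points higher (higher in 6 of 8 libraries, sign-flip permutation p = 0.0938, adjusted p = 0.127). Against chromosomes 1 to 10 and all other peaks it was 2.90 and 2.64 percentage points higher, each in 6 of 8 libraries (sign-flip permutation p = 0.0469, adjusted p = 0.0879), which did not pass the threshold. Leaving out high temperature 1 gave 1.70 and 1.67 percentage points. On chromosome 33 no peak had such a neighbour in 5 of 8 libraries. The same held for chromosome 30, and chromosome 32 had no such peak in any library. Chromosome 16 lacked such peaks only in normal temperature 1. Without chromosome 33 the difference from chromosomes 11 to 28 was 3.6 percentage points (sign-flip permutation, adjusted p = 0.0234). Without chromosome 16 it was 0.475 percentage points (sign-flip permutation, adjusted p = 0.586), and against chromosomes 1 to 10 and all other peaks 1.44 and 1.18. With neighbours counted within 20 kb it was 0.279 percentage points (sign-flip permutation, adjusted p = 0.969). The size of the difference thus depended on which of the 5 chromosomes was included and on the distance.

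The typical distance to the nearest peak of the same library was 23396 to 74545 bp as a median per library, at a mean spacing of 95039 to 210965 bp per peak. The median distance was 0.228 to 0.353 of the mean spacing on the 5 chromosomes and 0.281 to 0.351 on chromosomes 11 to 28. With the 8 lists pooled, 610 of the 1075 peaks (56.7%) lay in a chain of at least 2 peaks at most 5 kb apart, compared with 52.7% on chromosomes 11 to 28. Of the 223 chains, 218 joined peaks of more than 1 library. Chains of at least 5 peaks numbered 16 and held 104 peaks. The sixth named cluster, 33A (from 2890321 to 2903901, 13581 bp), held 7 peaks, 5 of them from high temperature 1 and 1 each from normal temperature 3 and 4.

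In score, the 5 chromosomes stood near the middle of their lists. The median percentile of their peaks was 40.2, 53.5, 46.4 and 55.8 in high temperature 1 to 4, and 57.4, 52.1, 40.5 and 56.8 in normal temperature 1 to 4. Many peaks share 1 score, with 104 to 1963 distinct scores per list, and in 4 of 8 libraries the median equals that of chromosomes 11 to 28 exactly. The means were 48.9 ± 7.08 at high and 51.7 ± 7.85 at normal temperature (SD, n = 4 each, exact permutation p = 0.600, adjusted p = 0.943). The difference from chromosomes 11 to 28 was -0.518 ± 6.87 percentile points, with a sign-flip permutation p of 0.750 and an adjusted p of 0.750. The 4 libraries with equal medians add no difference, so this test rested on the other 4. With 4 differences the smallest possible p is 0.125. The test could therefore not pass the threshold, and no conclusion is drawn from it. The upper 10% of a list by score held 9 to 18 of the peaks on the 5 chromosomes in high temperature libraries and 12 to 20 in normal ones. These were 8.91% to 12.1% of the peaks there at high and 8.51% to 14.9% at normal temperature, so the groups overlapped. Tied scores can make this class larger than 10%. In normal temperature 2, where the share was 14.9%, it also held 1175 of the 8834 other peaks. Recurrent peaks ranked higher than the others on these chromosomes in 6 of 8 libraries and equally in normal temperature 1 and 2, given here as a description.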

How the data were processed

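Peaks of 8 chicken liver CUT&Tag libraries were analysed. Per the submitters' processing notes, the tools were cutadapt 1.9.2 (trimming) and Bowtie2 2.2.4 (alignment) and the build was galGal6. There is 1 list per library (chromosome, start, end, name, score). The score is as deposited by the authors' peak caller, and the sources used here do not give its scale, thresholds or control. Starts, which count from 0 in the lists, are printed counting from 1.

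Peaks with column 1 exactly chr16, chr30, chr31, chr32 or chr33 were kept, and 10 peaks on chromosome 16 scaffolds were not. Union regions joined peaks overlapping by at least 1 bp, and bedtools 2.31.1 gave the same 66027. Groups were compared by two-sided exact permutation over 70 assignments (smallest p 0.0286), and chromosome sets by sign-flip over 256 assignments. The code was tested on simulated data. Tests ran in scipy 1.17.1, with pandas 2.3.3 and numpy 2.4.6 under Python 3.11.15, and plots in matplotlib 3.10.9.

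Members and lists were chosen with earlier results of these data known. Named regions were those held by at least 4 libraries, those of 1 temperature only, the most widely held of each chromosome, the 5 clusters with most peaks (6 with a tie) and each library's highest-scoring peak. Sequences and gene positions of galGal6 were not used here. Alternatives covered score filters, identical peaks, overlap, distances, widths, span, chromosomes, omitted libraries and the replicate number as a block.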

Additional observations from a re-analysis of the deposited data

Results flagged for a closer look

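High temperature 1 was far from the other 3 high temperature libraries in 3 values on the 5 chromosomes, among 24 sets of 4 values looked at. Chance alone gives such a sample in about 1 of 20 sets. It covered 5240 bp per Mb, against 1241 to 1852 in the others. Its share of peaks wider than 250 bp was 78.2%, against 12.5% to 19.8%. Its share of peaks with a neighbour of the same library within 5 kb was 19.8%, against 2.2% to 4.08%. These 3 values come from 1 list and are not independent. The gap was not confined to the 5 chromosomes. Among all other peaks, high temperature 1 covered 2701 bp per Mb, against 1603 to 1696 in the other high temperature libraries. Its share of peaks wider than 250 bp was 62.2% there, against 4.16% to 5.55%. Its share with a close neighbour was 10.4% there, against 1.31% to 1.92%.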

How the results depend on the processing

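Under the alternatives, 447 of 515 tested values kept direction and side of the threshold, and 38 of 52 counts of regions stayed within 1.5 times. The causes of the others were not tested. These counts of regions cover the 5 chromosomes only, and genome-wide shares were not counted under the alternatives. The 447 include values that could not change, as the replicate block fixes each temperature difference and cannot reach the threshold. Correlations of same-numbered libraries' deviations over 33 chromosomes were 0.0202, -0.0904, 0.652 and -0.0770 for numbers 1 to 4, so number 3 alone deviated together and the numbers were not taken to pair the samples. With the replicate block the temperature differences kept their values, such as 0.24 percentage points for the share, with a smallest possible p of 0.125. With the upper 50% of peaks by score, close neighbours gave -2.14 percentage points between temperatures, density against chromosomes 11 to 28 passed at -0.31 (log2), the percentile against chromosomes 1 to 10 was 1.27, and 1 high temperature region and 37 shared regions were left. With equal numbers of peaks, density gave 1.19 peaks per Mb and chromosome 32 -0.0033 percentage points between temperatures. There, density against chromosomes 11 to 28 (-0.36) and close neighbours against 11 to 28, 1 to 10 and all others (2.15, 3.08 and 2.81) passed, and the percentile differences were 3.97, 4.37 and 4.4. Without identical peaks 1 high temperature region was left. That setting removes every copy of such a peak, so region 33a kept only 1 holder and its loss follows from the setting. With neighbours within 20 kb the temperature difference was -1.63. Taking the upper 10% by score in place of the percentile gave 1.22 against chromosomes 1 to 10 and 0.957 against all others. Without chromosome 31 the percentile differed by 0.50 between temperatures. Without chromosome 33 density differed by 0.066 between temperatures, passed against the 3 sets (-0.45, -0.42 and -0.41), as did close neighbours (3.6, 4.57 and 4.30), and the percentile gave 0.074 and 0.059 against 11 to 28 and 1 to 10.

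Omitting each library gave these ranges between temperatures: share -0.0877 to 0.415, chromosome 16 0.0339 to 0.137, chromosome 32 0.0006 to 0.0236, chromosome 30 -0.0259 to 0.0594, chromosome 31 -0.0039 to 0.0697, chromosome 33 -0.0972 to 0.152, density -1.49 to 0.43, covered bp per Mb -270 to 1063, percentile -6.49 to 0.17 and close neighbours -2.0 to 3.87. Against chromosomes 11 to 28, 1 to 10 and all others, density ran from -0.40 to -0.24, -0.39 to -0.21 and -0.37 to -0.20, and the percentile from -1.84 to 0.97, -1.86 to 0.99 and -2.0 to 0.81. Recurrence against 11 to 28 ran from 5.62 to 8.20, and close neighbours against the 3 sets from 1.46 to 2.47, 1.70 to 3.42 and 1.67 to 3.14. High temperature regions numbered 0 to 3, normal temperature regions 0 to 1, regions of at least 2 libraries 35 to 67 and of at least 4 libraries 4 to 8. The rule for regions of 1 temperature kept its 3 holders, so it is stricter for the reduced group and looser for the other. The ranges of these regions follow from that.

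The following were chosen after seeing the data. Without high temperature 1 and 3 the temperature differences were -0.229 (share), -438 (covered), 2.91 (percentile), -1.94 (close neighbours) and -0.0837, -0.0235 and -0.148 for chromosomes 30, 31 and 33. Against the 3 sets, wide peaks (8.12, 9.53 and 9.12) and recurrence (5.34, 6.12 and 5.94) then missed the threshold (adjusted p = 0.0521 by sign-flip permutation), and the percentile gave 0.845, 1.15 and 0.845. With 6 libraries the smallest possible p is 0.03125, so passing after adjustment needed most of the 15 comparisons at that p. High and normal temperature regions numbered 0 and 1, and regions of at least 2 and at least 4 libraries 26 and 3. The 0 was fixed in advance, since fewer than 3 high temperature libraries remained. Over 500 kb from both ends, the percentile gave 0.605, 0.837 and 0.674, and close neighbours passed against chromosomes 1 to 10 (3.41) and all others (3.39). Chromosome 32, with a span of 0.683 Mb, has no base that far from both ends and so adds nothing to these values. With peaks up to 250 bp, recurrence missed the threshold (1.9, 2.49 and 2.34). The lists hold no counts, so depth sets no interval here.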
